A study of Mus musculus with 24 samples.

Results

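The RNA of 8 genes that restrain protein synthesis and the kinase complex mTORC1 was followed in mouse liver. They are the 4E-binding proteins Eif4ebp1, Eif4ebp2 and Eif4ebp3, the sestrins Sesn1, Sesn2 and Sesn3, and the mTORC1 inhibitors Ddit4 and Deptor. They were picked by symbol from a deposited count table of 23240 rows, and all 8 were found and passed the filter on low counts, among 13773 genes tested. The livers came from female NSG mice, an immunodeficient strain without mature lymphocytes, for which the labels give an age of 8 weeks. Mice received tail-vein injections 2 times a week for 5 weeks, and the liver was collected 2 days after the last injection. The groups were EVs (extracellular vesicles, membrane particles that cells release) of MCF10A cells, EVs labelled MCF10A/miR-122, EVs of MDA-MB-231 cells, all at about 10 µg per injection, and phosphate-buffered saline (PBS), with 6 libraries each. MCF10A is a human breast epithelial line that does not form tumours, MDA-MB-231 is a human breast cancer line, and miR-122 is a microRNA abundant in liver. The EVs are therefore human and the recipients mouse, and no untreated group without injections was measured.

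mTORC1 is a kinase complex on the lysosome that drives protein synthesis when amino acids, insulin and energy are in supply. Ddit4 (also called REDD1) restrains it through the TSC complex, the sestrins restrain it by holding back GATOR2 in the amino acid branch, and Deptor binds the kinase mTOR itself. At the other end of the pathway the 4E-binding proteins, when mTORC1 does not phosphorylate them, keep the cap-binding protein eIF4E from the initiation factor eIF4G. In liver this pathway links feeding, insulin and stress hormones to growth, and Ddit4 and the sestrins are known as genes switched on by stress. RNA counts show neither phosphorylation nor mTORC1 activity.

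Counts per library totalled 21336818 to 33732639. By the numbers in their library names, the MCF10A EV and PBS libraries form a first set of 12, with totals of up to 29268884, and the other 12 form a last set with at least 26819650. The first principal component, with 23% of the variance, separated the sets completely, so in the 4 comparisons that cross them set and treatment cannot be told apart. MCF10A EV against PBS and MDA-MB-231 EV against MCF10A/miR-122 EV each lie within a set. In the last set the library names also contradict the labels: libraries with the MCF10A/miR-122 EV label are named for MDA-MB-231, and libraries with the MDA-MB-231 EV label are named for miR-122. Groups are called by their labels here, and each result for these 2 groups holds for the group so labelled. Hepatocyte markers such as Alb summed to between 100000 and 144000 CPM (counts scaled to library size by TMM) in every library, and the lymphocyte marker Ncr1 was at 0 in all 24. Summed macrophage markers ranged from 221 to 539 CPM with MCF10A/miR-122 EV, against 203 to 259 CPM with PBS.

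Promoters of 4 of these genes are printed because the genes take part in patterns described here. Whether the promoters relate to those patterns was not tested. Ddit4 and Sesn2 were the members called higher in livers labelled MCF10A/miR-122 EV for which a promoter was at hand, and Sesn3 and Eif4ebp2 are 2 of 3 members whose levels moved together from library to library. Each window holds 300 bases from RefSeq, the last 50 of them after the annotated start, is written 5′ to 3′ on the strand of the gene, and is given in build GRCm38.p6. Capitals mark CCAAT boxes, which in these windows all lie on the opposite strand and so read ATTGG.
Ddit4 (chr10:59951721-59952020, minus strand): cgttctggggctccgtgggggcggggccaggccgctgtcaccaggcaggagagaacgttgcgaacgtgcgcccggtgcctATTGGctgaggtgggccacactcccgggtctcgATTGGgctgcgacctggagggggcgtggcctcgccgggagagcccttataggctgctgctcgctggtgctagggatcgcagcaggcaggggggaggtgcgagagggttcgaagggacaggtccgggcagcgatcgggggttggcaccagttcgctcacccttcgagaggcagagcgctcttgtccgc
Sesn2 (chr4:132510407-132510706, minus strand): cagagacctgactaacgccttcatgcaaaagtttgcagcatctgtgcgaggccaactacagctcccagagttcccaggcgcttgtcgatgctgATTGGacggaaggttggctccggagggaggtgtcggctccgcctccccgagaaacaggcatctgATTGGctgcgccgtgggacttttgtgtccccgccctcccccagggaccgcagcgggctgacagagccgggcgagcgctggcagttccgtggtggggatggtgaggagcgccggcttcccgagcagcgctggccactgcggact
Sesn3 (chr9:14276051-14276350, plus strand): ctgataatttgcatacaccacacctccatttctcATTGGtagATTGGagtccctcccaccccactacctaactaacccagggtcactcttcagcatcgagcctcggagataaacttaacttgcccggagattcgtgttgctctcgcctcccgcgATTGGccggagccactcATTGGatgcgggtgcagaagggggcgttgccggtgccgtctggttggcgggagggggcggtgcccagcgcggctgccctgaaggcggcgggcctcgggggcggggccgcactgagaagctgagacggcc
Eif4ebp2 (chr10:61452620-61452919, minus strand): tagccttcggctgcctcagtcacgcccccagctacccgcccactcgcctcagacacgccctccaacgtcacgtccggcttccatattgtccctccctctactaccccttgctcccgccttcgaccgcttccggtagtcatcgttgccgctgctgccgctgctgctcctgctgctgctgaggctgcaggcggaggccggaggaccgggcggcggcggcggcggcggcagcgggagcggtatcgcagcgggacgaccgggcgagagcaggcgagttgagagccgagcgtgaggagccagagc

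These windows were rich in G and C, at 69% for Ddit4, 64.7% for Sesn2, 62.7% for Sesn3 and 70% for Eif4ebp2, against a median of 52.7% over all promoters. Ddit4 and Sesn2 each held 2 CCAAT boxes, Sesn3 held 4 and Eif4ebp2 none. CCAAT on either strand was found in 37.4% of all 32851 promoter windows. The E-box CACGTG (7.15% of all windows), the D-box TTATGNAA (3.38%), the C/EBP-ATF motif TGATGNAA (3.97%) and the TATA box TATAAA (13.6%) were found in none of the 4. GGGCGG, the core of an Sp1 site, was found in all 4, against 35.7% of all windows, and no match overlapped a CCAAT box. The FOXO motif GTAAACA (3.65% of all windows) was found in none of the 4, and in 1 of 2 annotated starts of Sesn1. All motifs were searched on both strands, and a match describes letters only.

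Per kilobase of the longest annotated transcript, the 8 genes spanned a wide range of levels. Over all 24 libraries Eif4ebp3 averaged 31.6 ± 12.5 CPM per kb (SD, n = 24), above Eif4ebp1 at 12.3 ± 1.45 and Eif4ebp2 at 10.4 ± 2.4, so the 3 binding proteins of eIF4E stood at the top of the order. Ddit4 followed at 5.07 ± 5.24, Deptor at 3.23 ± 1.11, Sesn1 at 3.03 ± 0.608 and Sesn2 at 2.48 ± 0.894 CPM per kb. Sesn3 was lowest at 0.449 ± 0.124 CPM per kb. The place of Ddit4 depended on the group: it averaged 9.93 ± 8.69 with MCF10A/miR-122 EV and 5.08 ± 2.65 with MDA-MB-231 EV, above Deptor and Sesn1. With MCF10A EV Ddit4 averaged 2.99 ± 0.534, below Sesn1 at 3.07 ± 0.345, and with PBS 2.29 ± 0.931 CPM per kb, below Deptor at 3.5 ± 0.65 and Sesn1 at 3.41 ± 0.441 (SD, n = 6 each). Eif4ebp1 and Eif4ebp2 lay within their spread of each other, and so did Ddit4, Deptor, Sesn1 and Sesn2. The level of Eif4ebp3 is uncertain, because 66.3% of the 32-base words of its transcript (744 bases) are shared with AC115631.1, a gene annotated over it on the same strand, and the way reads of such loci were counted is not given in the sources used here.

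**Figure D1:**
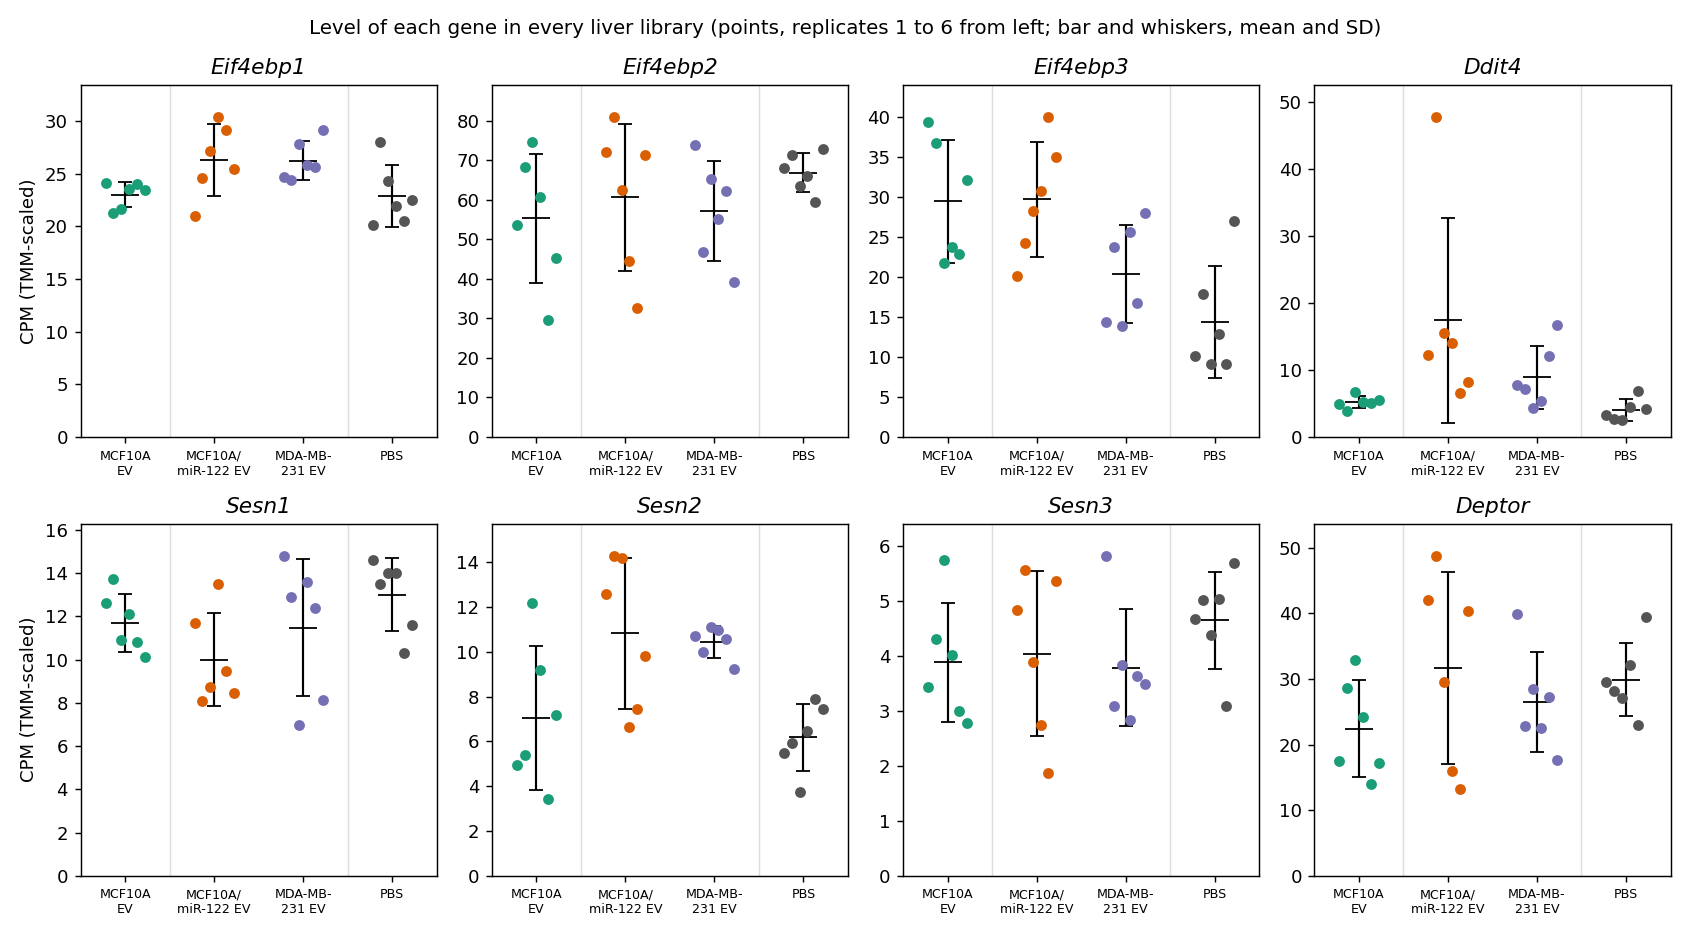
TMM-scaled CPM (vertical axis, linear, from 0) of the 8 genes in each of the 24 libraries, by group. Points are libraries, and bars with whiskers are the mean and SD of 6. Sesn2 was at 9.22 to 11.1 CPM with MDA-MB-231 EV and 3.76 to 7.92 CPM with PBS, groups of different sets. Ddit4 with MCF10A/miR-122 EV holds a library at 47.8 CPM.

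Few of the 8 genes changed, and those that did were higher. With MCF10A/miR-122 EV against PBS, 3 of 8 (37.5%) were higher and none lower, namely Ddit4, Sesn2 and Eif4ebp3, where 17.9% of all tested genes passed the threshold (adjusted p under 0.05 in edgeR's quasi-likelihood test). For MCF10A EV against PBS only Eif4ebp3 was higher (12.5%), where 1.07% of all genes passed. For MDA-MB-231 EV against PBS only Sesn2 was called, and it was higher (12.5%), close to the 11.7% of all genes called in either direction. Only Ddit4 was called between MCF10A/miR-122 EV and MCF10A EV, and it was higher (12.5%), under the 16.2% of all genes called in either direction. All these shares of all genes count both directions. Against PBS, 1150 genes were higher and 1313 lower with MCF10A/miR-122 EV, 51 and 96 with MCF10A EV, and 734 and 873 with MDA-MB-231 EV. Between MCF10A/miR-122 EV and MCF10A EV, 1037 were higher and 1200 lower.

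No member passed in the remaining pair of comparisons. Between MDA-MB-231 EV and MCF10A EV it was 0 of 8, where 7.68% of all genes passed, and 3 of 8 had an unadjusted p under 0.05. Between MDA-MB-231 EV and MCF10A/miR-122 EV it was 0 of 8, where 0.254% of all genes passed, and 2 of 8 had an unadjusted p under 0.05. DESeq2 and limma-voom also called 0 of 8 in both. The median log2 fold change of the 8 genes lay between -0.09 and 0.16 over the 6 comparisons, and that of all genes between -0.0039 and 0.0077. The comparisons with PBS share the PBS libraries, so their values are set side by side and not counted as separate evidence.

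**Figure D2:**
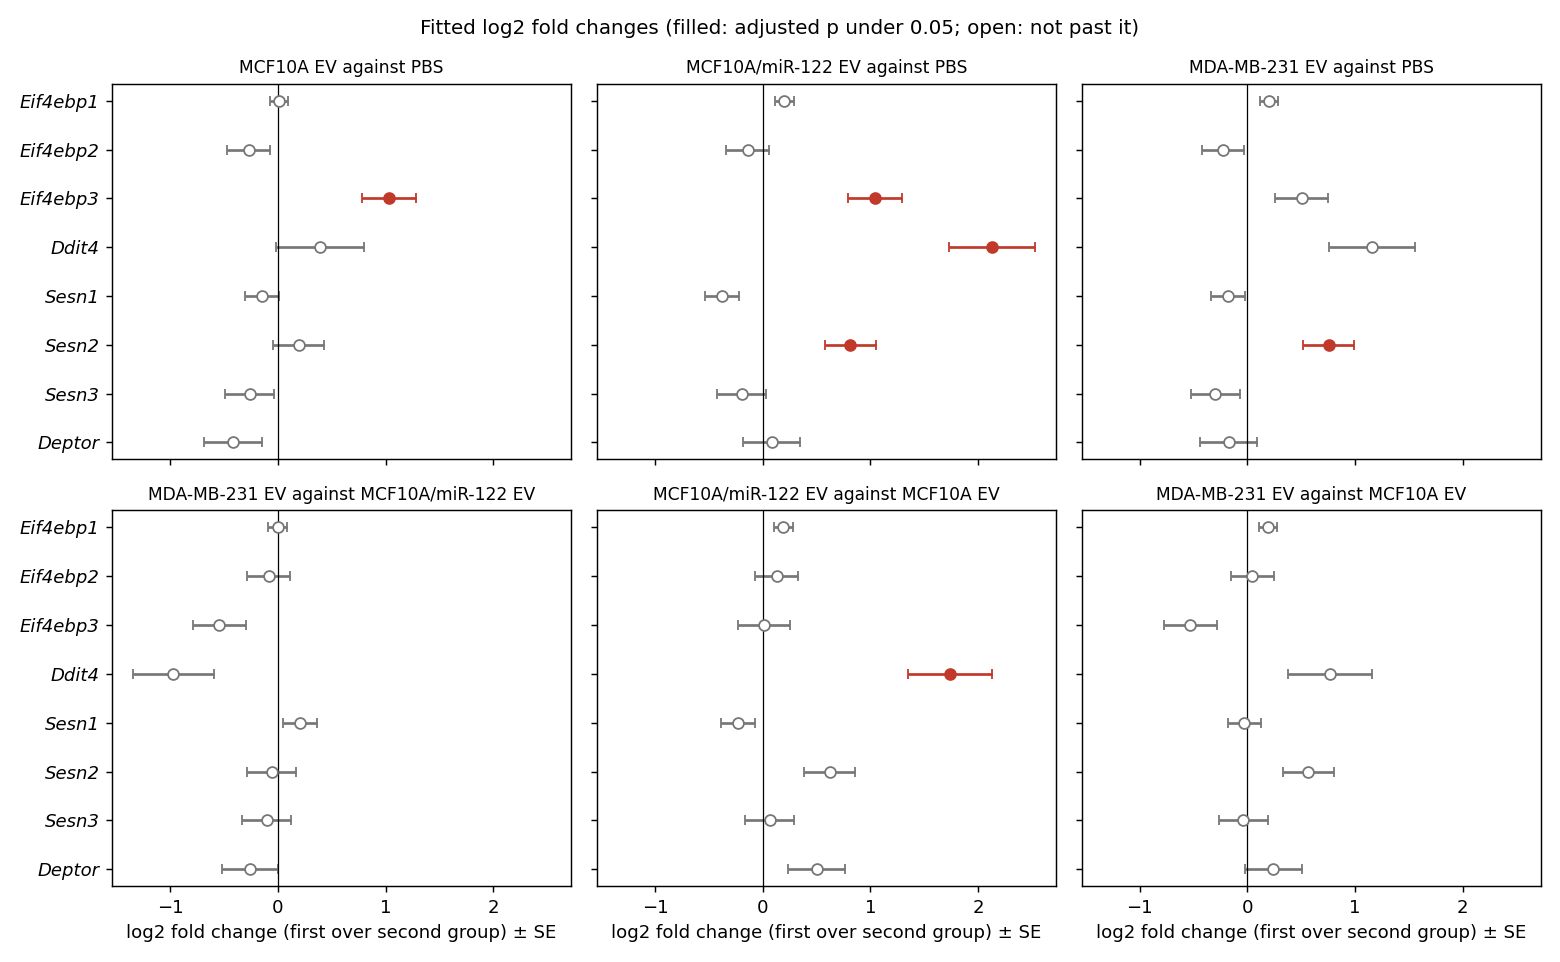
Fitted log2 fold change (horizontal axis) with its SE for each of the 8 genes in the 6 comparisons, each written with its first group over its second. Filled points passed an adjusted p of 0.05. Ddit4 reached 2.13 with MCF10A/miR-122 EV against PBS, and Sesn1, Sesn3, Eif4ebp1, Eif4ebp2 and Deptor passed in no panel.

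Ddit4, which shuts mTORC1 down in hypoxia and after glucocorticoids, had the largest change of the 8. Its lowest, median and highest libraries with MCF10A/miR-122 EV had 6.59, 13.2 and 47.8 CPM. The same 3 values were 2.47, 3.74 and 6.92 CPM with PBS. All 6 libraries with MCF10A/miR-122 EV lay above the PBS median and 5 of 6 above the highest PBS library, with replicate 5 inside the PBS range. The means were 17.4 ± 15.2 CPM with MCF10A/miR-122 EV and 4.02 ± 1.63 CPM with PBS (SD, n = 6 each), 4.38-fold apart in the fit (log2 2.13 ± 0.40 SE, adjusted p = 0.000703). Replicate 2, at 47.8 CPM, decided part of that size, which came to 1.51 on the log2 scale (adjusted p = 0.00153) when it was left out.

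Set against MCF10A EV, where Ddit4 had 3.89, 5.17 and 6.77 CPM as lowest, median and highest, the livers labelled MCF10A/miR-122 EV were higher by 1.74 ± 0.39 on the log2 scale (SE, adjusted p = 0.00341). Again replicate 5 alone lay inside the range of the other group. Without replicate 2 this value was 1.12 (adjusted p = 0.0131).

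In MDA-MB-231 EV livers Ddit4 had 4.37, 7.5 and 16.7 CPM as lowest, median and highest libraries. All 6 lay above the PBS median and 4 of 6 above the highest PBS library. The log2 fold change against PBS was 1.16 ± 0.40 and missed the threshold (adjusted p = 0.0575). DESeq2 (adjusted p = 0.0384) and a fit of the 12 libraries compared (0.0319) called it, as did leaving out PBS replicate 5 (1.38, adjusted p = 0.0332) or MDA-MB-231 EV replicate 3 (1.29, adjusted p = 0.0428). Directly compared, MDA-MB-231 EV and MCF10A/miR-122 EV livers had a log2 fold change of -0.97 ± 0.37 that was not called (adjusted p = 0.422), and it was -0.36 without replicate 2 of MCF10A/miR-122 EV.

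MCF10A EV and PBS livers, within the first set, had overlapping Ddit4 levels. The means were 5.24 ± 0.938 CPM with MCF10A EV and 4.02 ± 1.63 CPM with PBS (SD, n = 6 each), and the fitted difference was 0.39 ± 0.41 on the log2 scale (SE, adjusted p = 0.649). Of 6 macrophage markers, 4 were higher with MCF10A/miR-122 EV than with PBS (median log2 fold change of the list 0.57). Against MCF10A EV, 5 of 6 were higher (0.87). With MDA-MB-231 EV against PBS 0 of 6 passed (-0.05). The log2 fold change of Ddit4 in that comparison, which crosses the sets, was 1.16 and was not called (adjusted p = 0.0575). In bulk liver, more cells of a type and more RNA per cell cannot be told apart, and the part of these markers in the Ddit4 values was not tested.

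Sesn2, the sestrin that senses leucine in human cells, was higher in both groups of the last set than with PBS. MDA-MB-231 EV livers had 9.22, 10.6 and 11.1 CPM as lowest, median and highest libraries. With PBS the same values were 3.76, 6.22 and 7.92 CPM. The 2 groups did not overlap, but they lie in different sets, and the share of all genes without overlap between them was not counted. Ankhd1, described below beside Eif4ebp3, did not overlap between them either and was not called (adjusted p = 0.0911). The MDA-MB-231 EV libraries were the tightest of any group for Sesn2, with an SD of 6.79% of their mean. The means of 10.4 ± 0.709 CPM with MDA-MB-231 EV and 6.18 ± 1.5 CPM with PBS (SD, n = 6 each) were 1.69-fold apart in the fit (log2 0.76 ± 0.24 SE, adjusted p = 0.0375). That call was lost when PBS replicate 1, 2, 3 or 4 or MDA-MB-231 EV replicate 1, 2, 3, 4 or 5 was left out (adjusted p up to 0.089), with log2 fold changes of 0.64 to 0.77.

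In MCF10A/miR-122 EV livers Sesn2 had 6.64, 11.2 and 14.3 CPM as lowest, median and highest libraries. All 6 lay above the PBS median and 4 of 6 above the highest PBS library, with replicates 4 and 5 inside the PBS range. The log2 fold change against PBS was 0.81 ± 0.24 (SE, adjusted p = 0.0184), or 1.76-fold, and the call held when any of the 12 libraries was left out.

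MCF10A EV livers were spread widely for Sesn2, at 3.42, 6.28 and 12.2 CPM as lowest, median and highest, across most of the range seen in the other groups. Their log2 fold change against PBS was 0.19 ± 0.24 (SE, adjusted p = 0.717). Between MCF10A/miR-122 EV and MCF10A EV the value was 0.62 ± 0.24 (adjusted p = 0.0716), which DESeq2 (0.042) and limma-voom (0.0435) called, and so did leaving out MCF10A EV replicate 3 (0.86, adjusted p = 0.0103) or MCF10A/miR-122 EV replicate 4 or 5. Between MDA-MB-231 EV and MCF10A EV it was 0.57 ± 0.24 (adjusted p = 0.148), and 0.80 (adjusted p = 0.0287) without MCF10A EV replicate 3, the library at 12.2 CPM. Between the groups of the last set the difference was -0.06 ± 0.23 (SE, adjusted p = 0.983).

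Sesn1, a p53 target, and Sesn3, a FOXO target, were called in no comparison. Sesn1 had 8.06, 9.10 and 13.5 CPM with MCF10A/miR-122 EV as lowest, median and highest libraries. With PBS the same values were 10.3, 13.7 and 14.6 CPM, so the ranges overlapped although the median stood lower with MCF10A/miR-122 EV. The log2 fold change was -0.38 ± 0.16 (SE, adjusted p = 0.0948), and it passed without MCF10A/miR-122 EV replicate 4, at -0.49 (adjusted p = 0.0331). Sesn3 was scarce, at 1.87 to 5.83 CPM over all libraries, and its log2 fold changes against PBS lay between -0.30 and -0.19 with an SE of 0.23.

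Deptor, which binds mTOR in both of its complexes, varied widely within groups. It had 13.2, 34.9 and 48.8 CPM with MCF10A/miR-122 EV as lowest, median and highest libraries. With MCF10A EV these values were 14.0, 20.8 and 32.9 CPM. With PBS they were 23.0, 28.8 and 39.4 CPM, so that the PBS libraries lay inside the range of MCF10A/miR-122 EV. No comparison was called, and the largest log2 fold change was 0.50 ± 0.27 with MCF10A/miR-122 EV against MCF10A EV (SE, adjusted p = 0.21). That value turned to -0.0655 when an index of transcript length in each library, described with the correlations between members, was added to the fit.

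Of the 3 repressors that bind eIF4E, only Eif4ebp3, the shortest of their transcripts, was called. No other member passed in a comparison within a set. Its MCF10A EV libraries had, as lowest, median and highest values, 21.8, 27.9 and 39.4 CPM. With PBS these were 9.1, 11.5 and 27 CPM. All but 1 of the PBS libraries lay below every MCF10A EV library, and PBS replicate 6, at 27 CPM, lay among them. The means were 29.5 ± 7.68 CPM with MCF10A EV and 14.4 ± 7.04 CPM with PBS (SD, n = 6 each), 2.05-fold apart in the fit (log2 1.03 ± 0.25 SE, adjusted p = 0.0397). The call was lost without PBS replicate 1, 2, 3 or 4 or MCF10A EV replicate 1, 2, 4 or 6 (adjusted p up to 0.123, log2 fold changes of 0.92 to 1.11), and in a fit of the 12 libraries compared (1.02, adjusted p = 0.103).

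In MCF10A/miR-122 EV livers Eif4ebp3 had 20.1, 29.4 and 40.0 CPM as lowest, median and highest libraries, a range close to that with MCF10A EV. All 6 lay above 5 of the 6 PBS libraries. The log2 fold change against PBS was 1.05 ± 0.25 (SE, adjusted p = 0.00519), or 2.06-fold, and the call held when any of the 12 libraries was left out. Against MCF10A EV the difference was 0.01 ± 0.24 (SE, adjusted p = 0.984).

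MDA-MB-231 EV livers stood between the others for Eif4ebp3, at 13.9, 20.2 and 28.0 CPM as lowest, median and highest libraries. Their log2 fold change against PBS was 0.50 ± 0.25 (SE, adjusted p = 0.198), and 0.77 (adjusted p = 0.0291) without PBS replicate 6. Against MCF10A/miR-122 EV it was -0.54 ± 0.25 (adjusted p = 0.561), with all 6 MDA-MB-231 EV libraries below the median of MCF10A/miR-122 EV. Against MCF10A EV it was -0.53 ± 0.25 (adjusted p = 0.199).

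Ankhd1, the neighbouring gene, whose transcripts in human can run on into EIF4EBP3, was measured beside it because reads of the 2 could be mixed. Ankhd1 was at 27.6 to 41.3 CPM with MCF10A EV, 29.4 to 52.4 with MCF10A/miR-122 EV, 35.4 to 42.0 with MDA-MB-231 EV and 31.1 to 35.3 CPM with PBS. It was called in no comparison, with log2 fold changes of 0.11 ± 0.10, 0.25 ± 0.10 and 0.27 ± 0.10 (SE) for these EV groups against PBS in the same order. Whether the reads of Eif4ebp3 include those of Ankhd1 or of the gene annotated over Eif4ebp3 was not tested, and the levels of Ankhd1 cannot show it.

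Eif4ebp1, the best studied 4E-binding protein, varied little, with an SD of 5.17% to 12.9% of the mean in each group. It had 21, 26.4 and 30.4 CPM with MCF10A/miR-122 EV as lowest, median and highest libraries, and 20.1, 22.2 and 28.0 CPM with PBS. The log2 fold change was 0.20 ± 0.08 (SE, adjusted p = 0.0997), and leaving out PBS replicate 2 (0.27, adjusted p = 0.0265) or MCF10A/miR-122 EV replicate 1 (0.25, adjusted p = 0.0322) brought it past the threshold. In MDA-MB-231 EV livers, at 24.4 to 29.2 CPM, every library lay above every MCF10A EV library, at 21.3 to 24.1 CPM. The log2 fold change of 0.19 ± 0.08 was not called (adjusted p = 0.184). These groups lie in different sets, and the share of all genes without overlap between them was not counted. Against PBS, MDA-MB-231 EV gave 0.20 ± 0.08 (adjusted p = 0.128), and 0.27 (adjusted p = 0.0403) without PBS replicate 2. Against MCF10A EV, MCF10A/miR-122 EV gave 0.19 ± 0.08 (adjusted p = 0.126), and 0.26 (adjusted p = 0.0348) without MCF10A/miR-122 EV replicate 1.

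Eif4ebp2, the form best known from brain, was the opposite case, with a wide spread inside each EV group and a narrow one with PBS. It had 29.6, 57.1 and 74.6 CPM with MCF10A EV as lowest, median and highest libraries, and 32.5, 66.8 and 80.9 CPM with MCF10A/miR-122 EV. With MDA-MB-231 EV these were 39.3, 58.7 and 73.7 CPM, and with PBS 59.5, 66.9 and 72.7 CPM. The SD was 29.5%, 30.5% and 22.1% of the mean in these EV groups, and 7.34% with PBS. The log2 fold changes against PBS lay between -0.27 and -0.14 (SE 0.20), and none was called. The difference in spread itself was not tested.

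Deptor, Eif4ebp2 and Sesn3 moved together from library to library. Deviations of log2 CPM from the group mean were correlated within each set of 12 libraries, over 56 tests of member pairs, with p from 100000 permutations within groups and Benjamini-Hochberg adjustment. Deptor and Eif4ebp2 had Pearson's r = 0.964 in the last set (permutation p = 3e-05, adjusted p = 0.00168, Spearman's rho = 0.986 with permutation p = 3e-05) and r = 0.878 in the first (permutation p = 0.00017, adjusted p = 0.00462, rho = 0.923 with permutation p = 0.00033). Leaving out the 2 farthest libraries gave r = 0.953 in the last set and 0.829 in the first.

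Deptor and Sesn3 had r = 0.940 in the last set (permutation p = 0.0003, adjusted p = 0.00462, rho = 0.958 with permutation p = 0.00012) and r = 0.901 in the first (permutation p = 0.00033, adjusted p = 0.00462, rho = 0.937 with permutation p = 5e-05). Without the 2 farthest libraries these were 0.903 in the last set and 0.888 in the first. Eif4ebp2 and Sesn3 had r = 0.892 in the last set (permutation p = 0.00058, adjusted p = 0.0065, rho = 0.930 with permutation p = 0.0002), and 0.912 without the 2 farthest. In the first set it was r = 0.751 (permutation p = 0.00705, adjusted p = 0.0564, rho = 0.846 with permutation p = 0.00161), and 0.789 without the 2 farthest. By Pearson's r no other pair of members passed in either set. By Spearman's rho 3 more passed: Ddit4 and Sesn2 in the first set (rho = 0.727, permutation p = 0.00279, adjusted p = 0.0195, r = 0.606 with adjusted p = 0.0603, and 0.517 without the 2 farthest), Eif4ebp2 and Eif4ebp3 in the last set (rho = -0.804, permutation p = 0.00226, adjusted p = 0.0181, r = -0.750 with adjusted p = 0.0542, and -0.603 without the 2 farthest), and Eif4ebp3 and Deptor in the last set (rho = -0.776, permutation p = 0.0034, adjusted p = 0.0212, r = -0.682 with adjusted p = 0.0603, and -0.678 without the 2 farthest).

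These 3 genes have the longest transcripts of the 8, at 8547 bases for Deptor, 9125 for Sesn3 and 5784 for Eif4ebp2. A length index was therefore computed for each library: the median log2 deviation of the 3103 genes with the most exon sequence (at least 6664 bases) minus that of the 3104 with the least (at most 2646 bases). The index ran from -0.22 to 0.10 with MCF10A EV, from -0.20 to 0.25 with MCF10A/miR-122 EV, from -0.06 to 0.15 with MDA-MB-231 EV and from -0.11 to 0.17 with PBS. Libraries with a high index had relatively more RNA counted for long genes.

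Over 16 tests, Deptor followed this index with r = 0.936 in the last set (permutation p = 0.00038, adjusted p = 0.00304, rho = 0.916 with permutation p = 0.00052) and r = 0.908 in the first (permutation p = 0.00018, adjusted p = 0.00288, rho = 0.853 with permutation p = 0.00085). Sesn3 gave r = 0.842 in the last set (permutation p = 0.00367, adjusted p = 0.00979, rho = 0.832 with permutation p = 0.00332) and 0.843 in the first (permutation p = 0.00192, adjusted p = 0.00614, rho = 0.818 with permutation p = 0.00388). Eif4ebp2 gave r = 0.863 in the last set (permutation p = 0.00068, adjusted p = 0.00363, rho = 0.923 with permutation p = 0.00025) and 0.705 in the first (permutation p = 0.0206, adjusted p = 0.0412, rho = 0.657 with permutation p = 0.0324). Without the 2 farthest libraries these were, in the last and first set, 0.958 and 0.826 for Deptor, 0.898 and 0.695 for Sesn3, and 0.927 and 0.616 for Eif4ebp2.

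Eif4ebp1 and Eif4ebp3, but not Ddit4, went the other way in the last set, although all 3 have short transcripts. Eif4ebp1 (1997 bases) had r = -0.866 there (permutation p = 0.00137, adjusted p = 0.00548, rho = -0.790 with permutation p = 0.00925, r = -0.740 without the 2 farthest) and Eif4ebp3 r = -0.626 (permutation p = 0.0189, adjusted p = 0.0412, rho = -0.671 with permutation p = 0.0154, r = -0.626 without the 2 farthest). In the first set neither passed, at r = -0.337 for Eif4ebp1 (permutation p = 0.247, adjusted p = 0.359, rho = -0.399 with permutation p = 0.21) and 0.233 for Eif4ebp3 (permutation p = 0.452, adjusted p = 0.583, rho = 0.091 with permutation p = 0.792). Ddit4 (1755 bases) had r = 0.279 in the last set (permutation p = 0.51, adjusted p = 0.583, rho = 0.098 with permutation p = 0.791) and -0.109 in the first (permutation p = 0.724, adjusted p = 0.773, rho = 0.049 with permutation p = 0.892). Sesn1 and Sesn2 passed in neither set. Sesn2 nevertheless had r = 0.789 in the last set (permutation p = 0.038, adjusted p = 0.0676, rho = 0.685 with permutation p = 0.0701, r = 0.666 without the 2 farthest). In the first set it had r = 0.430 (permutation p = 0.228, adjusted p = 0.359).

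With the index removed from both genes, r between Deptor and Eif4ebp2 was 0.877 in the last set and 0.800 in the first, between Deptor and Sesn3 0.801 in the last and 0.601 in the first, and between Eif4ebp2 and Sesn3 0.609 in the last and 0.411 in the first. With the index as a covariate of the fit, chosen after seeing the data, Ddit4 and Sesn2 stayed called wherever they had been, and Eif4ebp3 with MCF10A EV against PBS did not (0.94, adjusted p = 0.124). In that fit Eif4ebp1 passed with MCF10A/miR-122 EV against PBS (0.20, adjusted p = 0.0377) and against MCF10A EV (0.28, adjusted p = 0.0104), and with MDA-MB-231 EV against MCF10A EV (0.28, adjusted p = 0.0179). Ddit4 with MDA-MB-231 EV against PBS passed too (1.17, adjusted p = 0.048). What sets the index in a library was not tested.

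**Figure D3:**
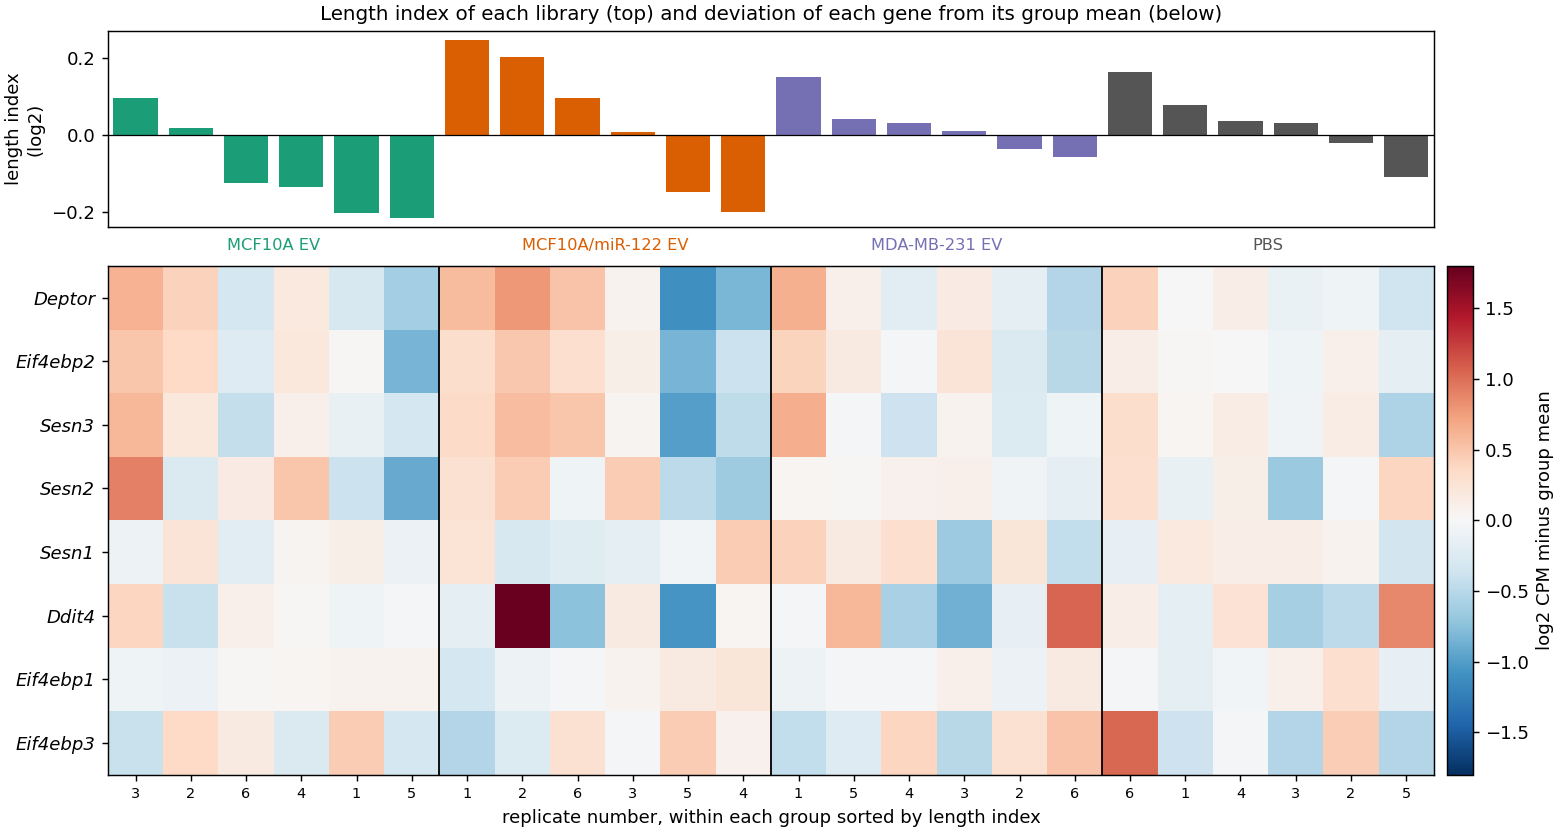
Top, the length index of each library (log2), with bars coloured by group and sorted within it. Below, the deviation of log2 CPM from the group mean for the 8 genes in the same libraries, from blue (lower) to red (higher). Deptor, Eif4ebp2 and Sesn3 are mostly red where the index is high and mostly blue where it is low, and the darkest red cell is Ddit4 in replicate 2 of MCF10A/miR-122 EV, 1.78 above its group mean.

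The genes most like each member were those with the largest smaller-of-2 Pearson correlations of log2 CPM over the 12 libraries of each set, among 10297 candidates, given as a description. Those of Eif4ebp2 came closest, with Mob1a at 0.977, Glg1 at 0.962 and Dag1 at 0.958. Those of Deptor were Lmbrd2 at 0.944, Pdpr at 0.934 and Uhmk1 at 0.931, and Sesn3 had Deptor itself at 0.910 before Kif1b at 0.881 and Reps2 at 0.857. Sesn2 had Arih1 at 0.854, Csnk1d at 0.808 and Ppp6r2 at 0.804.

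The other members had looser companions. Eif4ebp3 had Fam89b at 0.820, Alas1 at 0.770 and Zkscan14 at 0.733, and Eif4ebp1 had Tarbp2 at 0.799, Ddx47 at 0.748 and Gtf3a at 0.747. Sesn1 had Xrcc5 at 0.728 and Rtel1 at 0.713. Ddit4 had the lowest values, with Abi3 at 0.689, Dusp1 at 0.663 and Cdkn1a at 0.643. Group means were not removed here, unlike for the member pairs, so differences between the groups of a set enter these correlations. Points in them also share depth and library quality, the length index among them.

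The rest of the pathway was counted list by list, and each count against PBS is to be read beside the share of all genes called, which was 1.07% with MCF10A EV, 17.9% with MCF10A/miR-122 EV and 11.7% with MDA-MB-231 EV. Of 18 other mTORC1 inhibitors, including Tsc1, Tsc2 and the GATOR1 subunits, 1 was higher and 0 lower with MCF10A/miR-122 EV against PBS (list median -0.06, all genes 0.00), the AMPK subunit Prkaa1 at 15.2 ± 1.09 CPM with MCF10A/miR-122 EV and 13.3 ± 0.662 CPM with PBS (log2 fold change 0.20, adjusted p = 0.0343). None was called with MCF10A EV or MDA-MB-231 EV against PBS. Against MCF10A EV, Prkaa1 and Prkaa2 were higher with MCF10A/miR-122 EV, Prkaa2 by 0.38 on the log2 scale (adjusted p = 0.00184), and Rnf152 was higher with MDA-MB-231 EV, by 0.59 (adjusted p = 0.0305). Of 9 genes of the mTOR complexes, the mTORC2 subunit Prr5 was lower with MDA-MB-231 EV, at 2.06 ± 0.284 CPM, than with PBS, at 3.31 ± 0.769 CPM (log2 fold change -0.69, adjusted p = 0.00512) and than with MCF10A EV (-0.57, adjusted p = 0.0259), and no other passed in any comparison.

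GATOR2 is the complex that sestrins hold back. Its subunit Wdr24 was lower than with PBS in both groups of the last set, and these comparisons cross the sets. Its subunits Seh1l (-0.05 with MCF10A/miR-122 EV and 0.04 with MDA-MB-231 EV) and Sec13 (0.00 and 0.05) were called in neither. Of 16 tested genes of the Rag, Ragulator and GATOR2 complexes, 0 were higher and 2 lower with MCF10A/miR-122 EV against PBS, namely Wdr24 (-0.31, adjusted p = 0.00631) and Mios (-0.36, adjusted p = 0.0229). For MDA-MB-231 EV against PBS, 1 was higher (0910001L09Rik, also named Lamtor4, 0.37) and 3 lower, Wdr24 (-0.33, adjusted p = 0.0057), Wdr59 (-0.26) and Rraga (-0.25). List medians were near those of all genes, at 0.00 with MCF10A/miR-122 EV and 0.04 with MDA-MB-231 EV. None passed with MCF10A EV against PBS. Against MCF10A EV, Rragc was higher with MCF10A/miR-122 EV (0.32) and with MDA-MB-231 EV (0.24), and Wdr24 was lower (-0.35 and -0.38).

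Among 14 cap-binding initiation factors, the partners of the 4E-binding proteins, the kinase gene Mknk2, whose product phosphorylates eIF4E, stood out in size. It averaged 182 ± 18.2 CPM with MCF10A/miR-122 EV, 184 ± 14.0 CPM with MDA-MB-231 EV and 100.1 ± 20.8 CPM with PBS (SD, n = 6 each), with log2 fold changes against PBS of 0.86 (adjusted p = 3.03e-05) and 0.88 (adjusted p = 3.78e-05) for these 2 EV groups. For MCF10A/miR-122 EV against PBS 3 of 14 were higher and 0 lower, the others being Eif4enif1 (0.29) and Eif4e2 (0.17). With MDA-MB-231 EV only Mknk2 passed, and with MCF10A EV none of 14 did. Of 7 genes of the S6 kinase branch, Rps6kb1, the kinase itself, was higher with MCF10A/miR-122 EV (0.36, adjusted p = 0.00227) and with MDA-MB-231 EV (0.33, adjusted p = 0.00634) than with PBS, and Pdcd4, an inhibitor of the helicase eIF4A, was lower with MCF10A/miR-122 EV (-0.43, adjusted p = 0.0141).

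The upstream programs known to switch on Ddit4 and the sestrins were counted in the same way. Of 12 glucocorticoid-induced genes, 7 were higher and 0 lower with MCF10A/miR-122 EV against PBS (list median 0.73), 3 higher with MDA-MB-231 EV (0.30) and 2 higher with MCF10A EV (0.27), where the median of all genes was 0.00, 0.00 and 0.01. Tsc22d3, a direct glucocorticoid target, averaged 216 ± 27.7 CPM with MCF10A/miR-122 EV, 197 ± 28.2 CPM with MDA-MB-231 EV, 126 ± 19.9 CPM with MCF10A EV and 58.1 ± 27.1 CPM with PBS. The list was not uniform: its lowest log2 fold change against PBS was -1.38 with MDA-MB-231 EV and -1.43 with MCF10A EV. Between MDA-MB-231 EV and MCF10A EV, 2 were higher and 1 lower (list median 0.00). Of 14 insulin-arm genes, 4 were higher with MCF10A/miR-122 EV against PBS, Igfbp1 most (2.48 ± 0.65, adjusted p = 0.00997), then Foxo1 (0.87), Foxo3 (0.74) and Sgk1 (0.59, also a glucocorticoid target). Igfbp1 was spread widely with MCF10A/miR-122 EV, at 219.7 ± 271 CPM, with 1 library below every PBS library. With MDA-MB-231 EV against PBS only Irs1 (0.44) passed, and Igfbp1, at 1.75, was not called (adjusted p = 0.0729). Between these 2 EV groups 0 of 14 passed.

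Against PBS, the list of the integrated stress response had calls downward only, and that of p53 targets in both directions. Of 16 tested genes of the integrated stress response, which includes Sesn2 among its known targets, 0 were higher and 2 lower both with MCF10A/miR-122 EV and with MDA-MB-231 EV against PBS. They were Slc7a11, the cystine carrier (-1.02, adjusted p = 9.07e-07 with MCF10A/miR-122 EV, and -1.01, adjusted p = 8.52e-07 with MDA-MB-231 EV), and Atf5 (-0.56, adjusted p = 0.000891, and -0.39, adjusted p = 0.0185). Of 12 p53 targets, Trp53inp1 (1.06) and Zmat3 (0.33) were higher and Bbc3 (-1.08) lower with MCF10A/miR-122 EV against PBS, and Trp53inp1 (0.84) higher and Bbc3 (-0.91) lower with MDA-MB-231 EV. None of either list passed with MCF10A EV against PBS.

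Clock genes, which cycle over the day in liver, also differed, and collection times are not given in the labels. Of 13 tested, 5 were higher and 2 lower with MCF10A/miR-122 EV against PBS, 3 higher and 2 lower with MDA-MB-231 EV, and 0 higher and 3 lower with MCF10A EV. Against MCF10A EV, 8 were higher and 3 lower with MCF10A/miR-122 EV, where 16.2% of all genes passed. With MDA-MB-231 EV 9 were higher and 2 lower than with MCF10A EV, where 7.68% of all genes passed. Per1 averaged 72.4 ± 18.1 CPM with MCF10A/miR-122 EV, 59.0 ± 7.71 CPM with MDA-MB-231 EV and 16.3 ± 14.8 CPM with PBS, and the glucocorticoid list holds it too. Dbp averaged 12.7 ± 9.24 CPM with MCF10A EV and 68.8 ± 43.2 CPM with PBS. The part of these genes' programs in the values of Ddit4, Sesn2 and Eif4ebp3 was not tested.

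**Figure D4:**
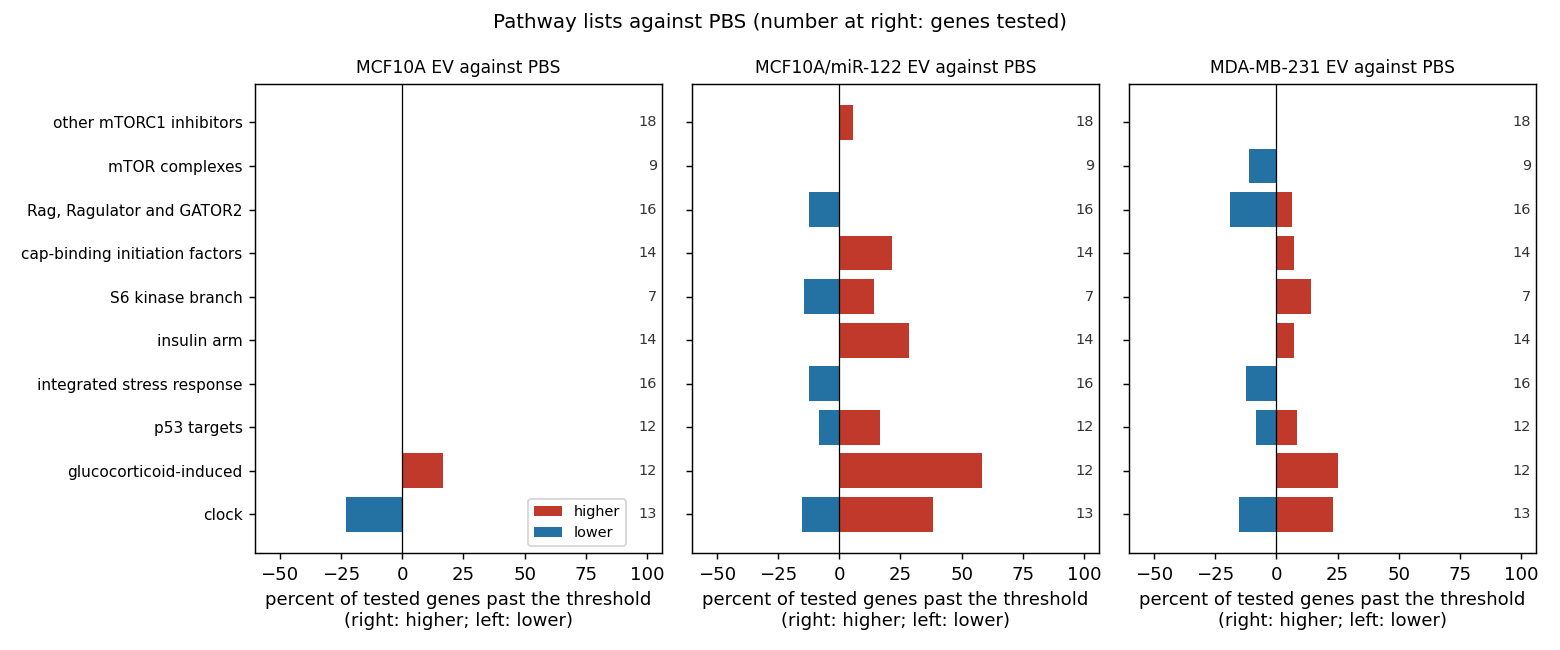
Share of tested genes called higher (red, right of 0) and lower (blue, left of 0) in each pathway list, in percent, for the 3 EV groups against PBS. The number at the right edge of each row is the number of genes tested. The glucocorticoid-induced list reaches 7 of 12 with MCF10A/miR-122 EV, and the 18 other mTORC1 inhibitors have at most 1 called.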

How the data were processed

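Per the labels' protocols, TRIZOL was used to extract the liver RNA and the library kit kept strand information. The authors deposited raw counts of reads per gene symbol, as whole numbers. The submitters' processing notes name bcl2fastq 2.18.0.12, TopHat2 and the mouse build mm9. How reads were assigned to genes (tool, annotation, strand setting) is not given in the sources here, so reads of overlapping genes may be mixed. The 27 rows that share 11 symbols (0.0744% of counts) were left out.

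All 24 libraries were fitted together with edgeR 4.0.16 in R 4.3.3 (TMM scaling, filterByExpr by group, two-sided quasi-likelihood F test), with Benjamini-Hochberg adjustment over 13773 genes and a threshold of 0.05. SE was derived from the F statistic. CPM values are TMM-scaled. Totals of 21336818 to 33732639 counts per library and a biological coefficient of variation of 16.8% set the precision. Transcript lengths and shared 32-base words come from GENCODE, and promoters from RefSeq (GRCm38.p6), matched by symbol for 5 of 8 members.

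Alternatives were RLE size factors, no filter, a filter of 1 CPM in all libraries, DESeq2 1.42.0, limma-voom (limma 3.58.1), a fit of only the 12 libraries compared, a replicate block, identities from the library names, and each library left out; the length index was added after seeing the data. Named genes are the 8 members, Ankhd1, the 3 genes most like each member, and up to 4 called genes per pathway list and comparison with the smallest p; a few items under these rules are not reported here. Members and lists were chosen with earlier results of these data known. Each library is taken as 1 mouse. The labels do not say so outright, and otherwise p-values measure only the spread between these samples, which may be technical.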

Additional observations from a re-analysis of the deposited data

Results flagged for a closer look

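Within the 32 combinations of a member and a group, the highest or lowest library was tested for its gap to the nearest other library against Dixon's 95% critical value for 6 samples, and 2 stood apart, where chance gives about 1 in 20. Ddit4 in MCF10A/miR-122 EV replicate 2 was at 47.8 CPM, against at most 15.5 CPM in the other libraries of that group. Sesn3 in MDA-MB-231 EV replicate 1 was at 5.83 CPM, against at most 3.84 CPM in the others, and this library had the highest length index of its group (0.15).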

How the results depend on the processing

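The calls of Ddit4, Sesn2 and Eif4ebp3 with MCF10A/miR-122 EV against PBS held under every alternative except the identities from the library names, where Sesn2 alone was left (1 member called). The other counts of called members were less stable. With MCF10A EV against PBS the count was 0 in the fit of 12 libraries and with the length index, and 0 to 1 with single libraries left out. With MDA-MB-231 EV against PBS it was 2 with DESeq2, in the fit of 12 libraries and with the length index, 3 under the library names, 0 with the replicate block, and 0 to 2 with single libraries left out. With MCF10A/miR-122 EV against MCF10A EV it was 2 with DESeq2, limma-voom and the length index, 0 under the library names, and 1 to 2 with single libraries left out. With MDA-MB-231 EV against MCF10A EV it was 1 under the library names and with the length index, and 0 to 1 with single libraries left out. With MCF10A/miR-122 EV against PBS it was 3 to 4 with single libraries left out. The number of all genes called moved by over 1.5 times within the sets. For MCF10A EV against PBS it was 414 with DESeq2, 27 in the fit of 12 libraries, 26 without PBS replicate 3 and 741 without PBS replicate 5, against 147. For MDA-MB-231 EV against MCF10A/miR-122 EV it was 98 with DESeq2, 23 in the fit of 12, 13 without MCF10A/miR-122 EV replicate 3 and 82 without its replicate 4, against 35. The library names exchange 2463 and 1607 genes against PBS, and 2237 and 1058 against MCF10A EV, between the last 2 groups. The cause of these differences was not tested.

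The replicate block (replicate number as a term) also brought Sesn1 with MCF10A/miR-122 EV against PBS past the threshold (-0.39, adjusted p = 0.036) and took Sesn2 with MDA-MB-231 EV against PBS out of it (0.74, adjusted p = 0.058). It called 165, 2500, 1714, 35, 2356 and 1155 genes in all, against 147, 2463, 1607, 35, 2237 and 1058 without it, in the order MCF10A EV against PBS, MCF10A/miR-122 EV against PBS, MDA-MB-231 EV against PBS, MDA-MB-231 EV against MCF10A/miR-122 EV, MCF10A/miR-122 EV against MCF10A EV, and MDA-MB-231 EV against MCF10A EV. The samples share only a number: same-numbered libraries correlated over 0.1 in 1 to 3 of 6 pairs, and 1 to 3 of 6 were closest to their own number.

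No called value changed sign. For Eif4ebp1 with MCF10A EV against PBS the log2 fold change was -0.0002 with RLE, -0.0067 with no filter, -0.011 with the strict filter, -0.001 with DESeq2, -0.007 with 12 libraries and -0.087 with the length index. With limma-voom, Deptor with MCF10A/miR-122 EV against PBS was -0.0503, and Eif4ebp1 with MDA-MB-231 EV against MCF10A/miR-122 EV was 0.0047. With the length index, MCF10A EV against PBS gave 0.0751 for Sesn3 and 0.0115 for Deptor, MCF10A/miR-122 EV against PBS gave -0.054 for Deptor, and MDA-MB-231 EV against MCF10A/miR-122 EV gave 0.0031 for Sesn2. Also with the length index, MCF10A/miR-122 EV against MCF10A EV gave -0.19 for Eif4ebp2, -0.34 for Sesn3 and -0.0655 for Deptor, and MDA-MB-231 EV against MCF10A EV gave -0.22 for Eif4ebp2 and -0.18 for Deptor. Under the library names, every value of MDA-MB-231 EV against MCF10A/miR-122 EV turns its sign by construction: 0.0036 for Eif4ebp1, 0.0866 for Eif4ebp2, 0.54 for Eif4ebp3, 0.97 for Ddit4, -0.20 for Sesn1, 0.0575 for Sesn2, 0.10 for Sesn3 and 0.26 for Deptor. The names also gave -0.17 for Deptor with MCF10A/miR-122 EV and 0.085 with MDA-MB-231 EV against PBS, and against MCF10A EV -0.53 for Eif4ebp3 and -0.0371 for Sesn3 with MCF10A/miR-122 EV, and 0.0109 for Eif4ebp3 and 0.0654 for Sesn3 with MDA-MB-231 EV.

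With single libraries left out, these values crossed 0. With MCF10A EV against PBS, Eif4ebp1 ran from -0.0397 to 0.0765 and Sesn2 from -0.0522 to 0.32. With MCF10A/miR-122 EV against PBS, Deptor ran from -0.0858 to 0.24. With MDA-MB-231 EV against MCF10A/miR-122 EV, Eif4ebp1 ran from -0.0621 to 0.0361, Eif4ebp2 from -0.22 to 0.0112, Sesn2 from -0.17 to 0.0363 and Sesn3 from -0.28 to 0.0078. With MCF10A/miR-122 EV against MCF10A EV, Eif4ebp3 ran from -0.0824 to 0.11 and Sesn3 from -0.0406 to 0.22. With MDA-MB-231 EV against MCF10A EV, Eif4ebp2 ran from -0.0813 to 0.15, Sesn1 from -0.11 to 0.0886 and Sesn3 from -0.20 to 0.12. Depth limits Sesn3, with 49 to 193 counts per library, and Ddit4 with PBS, with 67 to 159.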
